A study of Mus musculus with 21 samples.

Results

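Fibroblasts of the mouse lung 7 days after bleomycin were compared with fibroblasts of untreated lungs. The comparison took the 3 libraries labelled BLM day 7 and the 3 labelled untreated, 6 of the 21 libraries of the series, and all 23204 gene symbols that the files list, of which 11669 had enough counts to be tested. Both groups came from female C57BL/6 mice that carry the Col1a2-GFP transgene, in which the promoter of the collagen gene Col1a2 drives green fluorescent protein. Bleomycin (BLM), a DNA-cleaving drug that injures the lung epithelium, was given at 2 mg/kg into the pharynx to be breathed in, and the comparison group received no treatment. The other groups of the series are BLM day 14 and day 63 and silica (SiO2, 400 mg/kg) at the same days. Cells that stained for CD45, CD31, EpCAM, CD146 or Ter119 or took up propidium iodide were excluded, and 10000 GFP-positive cells were sorted per sample. Only cells with an active Col1a2 promoter could enter the gate, so mesenchymal cells without it were not sampled. Tags from the 3′ ends of the transcripts (3′SAGE-seq) were sequenced. The series calls BLM the reversible model, and the comparison addresses its start.

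Lung fibroblasts hold the alveolar scaffold together. In healthy tissue, alveolar fibroblasts beside the air sacs store lipid and supply growth factors to the epithelium, and adventitial fibroblasts line vessels and airways. After injury, fibroblasts are known to divide, to secrete collagen and matricellular glycoproteins, to gain contractile filaments and to release signals that draw in leukocytes. In the BLM model this phase begins within days and the matrix is later cleared.

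Total counts ran from 2080636 to 3974734 in the 6 libraries, of which ribosomal RNA made up 0.174% to 0.219% without treatment and 0.348% to 0.411% at BLM day 7. The labels mention no molecular identifiers on the tags, so floors and counting intervals cover counting error only. The labels do not say that libraries of a group came from separate mice, and p-values measure the spread between these samples. Values are CPM, tag counts scaled to a common library size, and per-library values are given in the order of replicate 1, 2 and 3. A gene is said to have risen or fallen where edgeR's quasi-likelihood test gave an adjusted p under 0.05 over all 11669 genes. A value written with ± after a gene is its log2 fold change, BLM day 7 minus untreated, with its standard error (n = 3 libraries per group). Standard errors were worked back from the F value of the quasi-likelihood test, whose spread was estimated over all 21 libraries.

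BLM day 7 replicate 1 stood apart from replicates 2 and 3 in several lists. Over all tested genes it was the highest of the 3 for 35.1% and the lowest for 35.9%, near an even split between the 3. It was the highest for 29 of 29 interferon-stimulated genes, 18 of 21 alveolar fibroblast genes, 17 of 24 adventitial genes and 15 of 23 cholesterol synthesis genes. It was the lowest for 7 of 7 fibrillar collagens, 23 of 26 contractile genes and 14 of 18 genes of serine and one-carbon synthesis. Replicate 2 in turn was the lowest for 22 of 26 immediate-early and heat shock genes. Counts without replicate 1 are given beside the lists it changed.

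In all, 3685 genes passed (31.6% of those tested), 1951 of them higher (16.7%) and 1734 lower (14.9%) at BLM day 7. Counts of list members below are to be set against these shares. The large changes were mostly upward: 320 genes rose and 105 fell by more than 4-fold, and 161 rose and 16 fell by more than 8-fold. For 3464 of the genes that passed, every library of 1 group lay above every library of the other, which also held for 42.6% of all tested genes. The median log2 fold change over all tested genes was 0.02. The values are sums over sorted cells, in which fewer cells of a kind and less RNA per cell cannot be told apart.

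**Figure D1:**
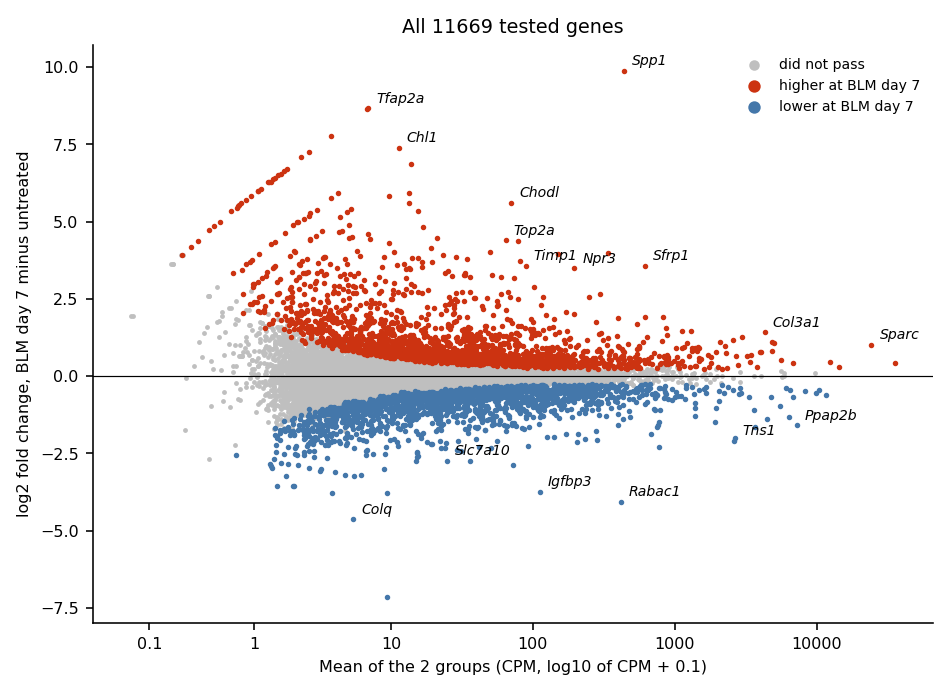
Log2 fold change (vertical axis, BLM day 7 minus untreated) against the mean CPM of both groups (horizontal log axis) for 11669 genes, with genes that passed in red (1951 higher) and blue (1734 lower). Spp1 lies far above genes of like abundance, and the diagonal rows of points at the upper left are genes with few or no untreated counts.

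The sorted cells carried the fibroblast label in their RNA. Decorin, the collagen-binding proteoglycan Dcn that marks fibroblasts, stood at 13441, 13919 and 14886 CPM in the untreated libraries and 12050.0, 8438 and 7322 CPM at BLM day 7. The receptor Pdgfra, a marker of fibroblasts in the lung, stood at 129, 139.7 and 136 CPM and 83.9, 90.1 and 93.5 CPM. Both were present in all 6 libraries and lower at BLM day 7. Of the 8 fibroblast markers they were the 2 that fell, and 5 rose, among them Col3a1 (1.42 ± 0.12) and the surface protein gene Thy1 (1.77 ± 0.41). The list's median was 0.82, and its sum went from 27660 to 30490 CPM up to 34310 to 36130 CPM. Some markers of other cells were at or near 0: Ptprc (CD45) did not exceed 0.634 CPM and Epcam 0.528 CPM in any of the 6 libraries, and Cdh5 and Vwf of endothelium had 0 counts. Others were abundant enough to test, most of all the mesothelial ones. Of 16 myeloid markers 4 were abundant enough to test and 2 rose, Tyrobp (2.00 ± 0.32) and the complement gene C1qa (1.72 ± 0.39), and the list summed to 13.0 to 22.0 CPM in untreated and 31.1 to 48.5 CPM in BLM day 7 libraries. Of 14 epithelial markers 2 were tested and both rose, the surfactant genes Sftpb (2.88 ± 0.38) and Sftpc (2.21 ± 0.35), and the list summed to 8.79 to 14.1 CPM and 31.1 to 36.3 CPM. Of 12 lymphocyte markers Ccl5 alone was tested, a chemokine gene that fibroblasts also express, and it rose (3.35 ± 0.34). The lymphocyte list summed to 3.28 to 5.02 CPM in untreated and 29.5 to 53.7 CPM in BLM day 7 libraries. Of 10 mesothelial markers 8 were tested, with Upk1b (-1.29 ± 0.12) lower and Msln (0.77 ± 0.24) higher, a call lost without untreated replicate 1 or BLM day 7 replicate 1 or 2. Of 5 tested endothelial markers Plvap (3.31 ± 0.41) rose and Tek (-1.35 ± 0.31) fell, and the list summed to 42.2 to 49.6 and 38.8 to 48.5 CPM. Of 5 tested pericyte and smooth muscle markers Cspg4 (2.2 ± 0.42) and Notch3 (2.10 ± 0.49) rose. Abcc9 (-0.41 ± 0.15) fell, a call lost without untreated replicate 2 or 3 or BLM day 7 replicate 1 or 3 (-0.32, adjusted p = 0.173, without untreated replicate 2). That list summed to 78.5 to 95 and 94.9 to 96.3 CPM. The mesothelial list summed to 526 to 657 and 278 to 393 CPM. The part of such cells in the results below was not tested.

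The largest rise belonged to Spp1, the gene of the secreted phosphoprotein osteopontin. It had 1.04, 0.754 and 0.936 CPM in the untreated libraries, 9 counts in all, and 622, 1004 and 1006 CPM at BLM day 7. Every treated library lay far above every untreated one, with replicate 1 the lowest of the treated, and the change was 9.87 ± 0.56 (adjusted p = 3.79e-14). Chondrolectin, the membrane lectin Chodl (chr16:78930948-78951733), had 2.33, 4.02 and 1.4 CPM and 91.4, 167 and 158 CPM. Again the groups did not overlap (5.62 ± 0.38, adjusted p = 1.82e-12). The imprinted long noncoding RNA H19 went from 0.777, 0.251 and 0 to 15.7, 29.6 and 34.5 CPM (5.94 ± 0.53).

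Several genes were all but silent before treatment. The transcription factor Tfap2a had 0 untreated counts and 10.4, 16.9 and 13.9 CPM at BLM day 7, which is at least 46.1-fold higher against a floor of 3 counts over the untreated group. The dense-core vesicle protein gene Ptprn also had 0 untreated counts, and its 10.4, 17.7 and 12.4 CPM are at least 45.5-fold higher. The adhesion molecule Chl1 had 1 untreated count and 13.3, 27.2 and 26.6 CPM, a ratio of 224 (95% exact counting interval 39.8 to 8883). For the secreted Wnt antagonist Frzb the ratio was 139 (38.1 to 1152) on 2 untreated counts, and for the membrane protein gene Serinc2 it was 63.4 (21.4 to 310) on 3. The kinesin Kif26b had 2 untreated counts, all in replicate 3, and a ratio of 50.5 (13.6 to 422). All 6 genes were present in each of the 3 treated libraries.

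Among the 12 largest falls in genes of at least 10 CPM was Igfbp3, which binds insulin-like growth factors in the extracellular space (chr11:7206086-7213923). It dropped from 229, 196 and 201 CPM to 23.2, 13.2 and 9.82 CPM. The groups lay far apart (-3.75 ± 0.22, adjusted p = 1.73e-13). The transcriptional corepressor Cbfa2t3 went from 134, 139 and 113 to 25.8, 12.4 and 14.3 CPM (-2.89 ± 0.28), and the neutral amino acid transporter Slc7a10 from 52.8, 41.9 and 34.6 to 8.71, 4.75 and 6.02 CPM (-2.75 ± 0.42). Colq (-4.63 ± 0.58), which anchors acetylcholinesterase in the basal lamina, Wfdc10 (-3.79 ± 0.56), the orphan receptor Gpr111 (-3.20 ± 0.40), the apoptosis inhibitor Faim2 (-2.74 ± 0.27) and Gsg1l (-2.74 ± 0.37), an auxiliary subunit of glutamate receptors, fell too. The uncharacterised LOC105242499 had 15.3, 16.6 and 24.3 CPM untreated and 1 count in all at BLM day 7, a ratio of 184 (95% exact counting interval 32.6 to 7315). Rabac1, a regulator of vesicle traffic, passed with -4.07 ± 1.43 on 79.8, 2203 and 85.7 CPM against 52.5, 42.3 and 47.2 CPM. Untreated replicate 2 stood far above all other libraries, and the value without it was -0.79 (adjusted p = 0.735). The call was also lost without any 1 of the 3 treated libraries.

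By abundance, the matrix protein Sparc gained most, from 16099, 16307 and 15578 to 31075, 34599.8 and 31789 CPM (1.02 ± 0.09). Also among the 12 largest gains in CPM were the translation factor Eef1a1 (0.42 ± 0.07), which has near-identical copies in the genome, Col3a1 (1.42 ± 0.12), the filament gene Vim (0.46 ± 0.10), the matrix Gla protein Mgp (1.08 ± 0.09), which holds back calcification, and the follistatin-like glycoprotein Fstl1 (0.82 ± 0.10). On the other side, the lipid phosphatase Ppap2b lost most, from 11577, 10399.8 and 10453 to 4505, 2885 and 3362 CPM (-1.59 ± 0.16). Tensin Tns1, which links integrins to actin, dropped from 4316, 4494 and 3881 to 1129, 799 and 1054 CPM (-2.09 ± 0.13). The septin Sept4 (-1.32 ± 0.12), the actin-severing protein gelsolin Gsn (-1.63 ± 0.16) and the selenium carrier Sepp1 (-0.96 ± 0.12) also fell, each without overlap between the groups.

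**Figure D2:**
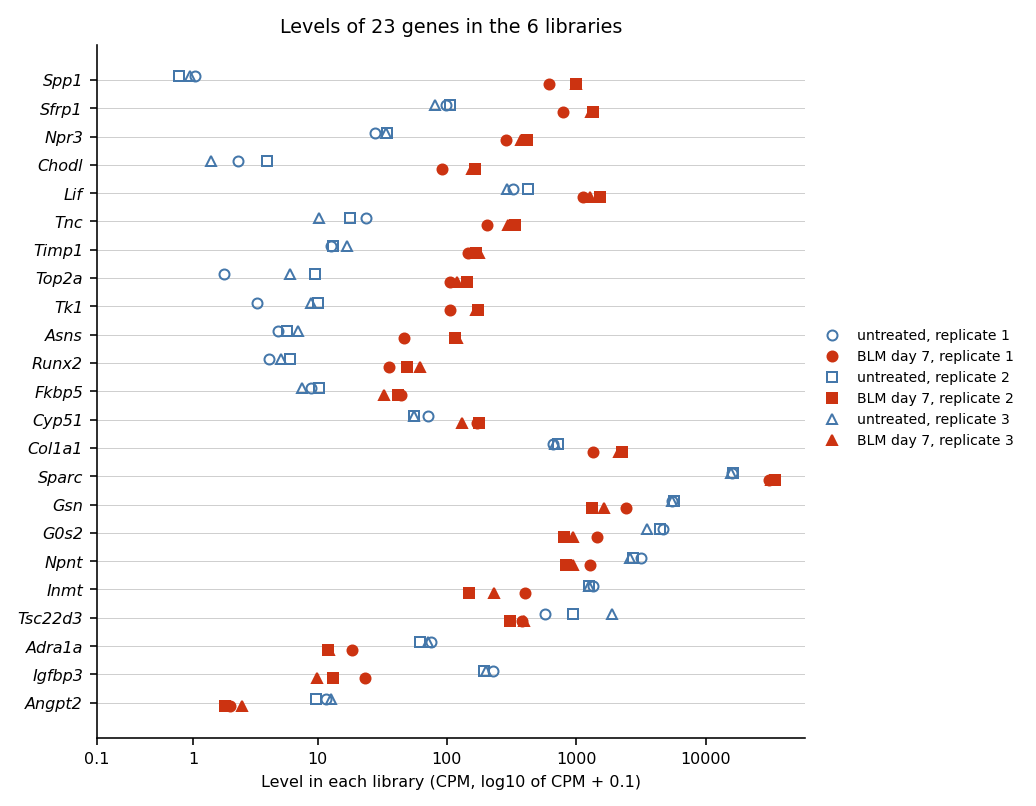
CPM on a log axis (log10 of CPM + 0.1) for 23 genes in each of the 6 libraries, with open blue symbols for untreated and filled red symbols for BLM day 7, and the shape giving the replicate. The red and blue symbols separate in every row shown, and the red circle of replicate 1 is the lowest treated symbol for Spp1, Asns and Col1a1.

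Cell division genes rose with few exceptions. Of 23 tested mitosis and spindle genes 22 rose and 0 fell, with a median of 3.63 on the log2 scale (3.62 with Kif23, which had 0 untreated counts, at its lower bound), and of 21 DNA replication genes 19 rose and 0 fell, with a median of 1.79. Topoisomerase Top2a, which untangles sister chromosomes, had 1.81, 9.55 and 6.09 CPM untreated and 106, 143 and 119 CPM at BLM day 7. The lowest treated library stood far above the highest untreated one (4.40 ± 0.37, adjusted p = 1.3e-10). Thymidine kinase Tk1, of the salvage route to thymidine nucleotides, went from 3.37, 10.0 and 8.9 to 106, 174 and 169 CPM (4.36 ± 0.29). The spindle protein Nusap1 (3.27 ± 0.24) and the replication factor Gins2 (3.78 ± 0.27) rose as well, as did the condensin subunit Ncapg (4.84 ± 0.34), which is in neither list. The S-phase cyclin Ccna2 was 47.1-fold higher (95% exact counting interval 12.7 to 394) on 2 untreated counts. Mcm4 and Mcm7 of the replicative helicase (0.13 ± 0.36 and 0.68 ± 0.35) and the spindle gene Prc1 (0.63 ± 0.27) did not pass, although Mcm7 did without untreated replicate 1 (1.24, adjusted p = 0.025). Without BLM day 7 replicate 1 the counts were 23 and 19.

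The promoters of 5 of these genes are shown because many members of the 2 lists hold the same short letters near their starts. Whether the letters bear on the rises was not tested. The windows are RefSeq sequences on GRCm38.p6, 250 bases before to 50 after the start, written 5′ to 3′ on the strand of the gene. CCAAT boxes and the cell cycle homology region TTTGAA are in capitals on either strand (ATTGG and TTCAAA where read in reverse) in the 3 mitotic genes, and E2F letters (TTCCCGC or TTGGCGC) in the 2 replication genes. Top2a lies at chr11:99024140-99024439 (minus strand), the anaphase activator Cdc20 at chr4:118437294-118437593 (minus), cyclin Ccnb1 at chr13:100786437-100786736 (minus), the helicase subunit Mcm5 at chr8:75109259-75109558 (plus) and the ribonucleotide reductase subunit Rrm2 at chr12:24708004-24708303 (plus).
Top2a: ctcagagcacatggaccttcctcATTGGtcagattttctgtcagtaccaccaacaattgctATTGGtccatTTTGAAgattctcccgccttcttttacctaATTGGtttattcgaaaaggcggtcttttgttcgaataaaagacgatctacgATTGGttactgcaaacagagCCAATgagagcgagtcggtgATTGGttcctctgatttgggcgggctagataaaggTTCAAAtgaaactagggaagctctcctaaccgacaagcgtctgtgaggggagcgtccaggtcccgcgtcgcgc
Cdc20: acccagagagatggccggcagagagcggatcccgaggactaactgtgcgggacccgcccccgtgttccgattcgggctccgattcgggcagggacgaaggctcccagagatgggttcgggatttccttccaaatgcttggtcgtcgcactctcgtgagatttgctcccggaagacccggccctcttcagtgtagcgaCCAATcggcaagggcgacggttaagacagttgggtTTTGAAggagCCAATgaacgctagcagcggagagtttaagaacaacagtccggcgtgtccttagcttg
Ccnb1: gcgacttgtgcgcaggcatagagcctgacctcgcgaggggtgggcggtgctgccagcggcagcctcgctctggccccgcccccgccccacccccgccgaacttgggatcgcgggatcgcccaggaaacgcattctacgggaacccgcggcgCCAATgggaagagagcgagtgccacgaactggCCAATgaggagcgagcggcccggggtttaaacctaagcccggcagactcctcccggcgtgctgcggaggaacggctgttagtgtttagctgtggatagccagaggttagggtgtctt
Mcm5: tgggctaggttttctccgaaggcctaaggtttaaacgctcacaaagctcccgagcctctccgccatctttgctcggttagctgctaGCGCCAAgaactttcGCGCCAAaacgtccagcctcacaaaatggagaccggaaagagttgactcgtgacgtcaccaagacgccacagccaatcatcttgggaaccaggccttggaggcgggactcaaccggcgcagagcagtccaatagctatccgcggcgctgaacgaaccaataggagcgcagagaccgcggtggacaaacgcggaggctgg
Rrm2: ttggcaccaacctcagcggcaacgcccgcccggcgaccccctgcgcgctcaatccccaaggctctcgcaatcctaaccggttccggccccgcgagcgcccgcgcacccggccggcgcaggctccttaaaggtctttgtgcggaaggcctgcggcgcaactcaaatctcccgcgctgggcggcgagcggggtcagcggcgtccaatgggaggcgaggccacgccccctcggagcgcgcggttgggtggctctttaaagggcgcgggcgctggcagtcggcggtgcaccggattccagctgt
Top2a held 6 CCAAT boxes and 2 TTTGAA, Cdc20 2 and 1, Ccnb1 2 and 0, and Mcm5 held 2 E2F matches and Rrm2 0. Of 21 tested mitosis genes with a promoter entry 18 (85.7%) held CCAAT and 16 (76.2%) TTTGAA, against 41.1% and 20.2% of all 27025 genes with an entry and 42.3% and 14.1% of the 8398 tested ones. Of 17 tested replication genes with an entry 10 (58.8%) held an E2F match, against 7.79% of all and 14.2% of tested genes. Of the same 17, 12 (70.6%) held CCAAT and 3 (17.6%) the cell cycle homology letters, so CCAAT was common in both lists. CCAAT is left in small letters in the Mcm5 and Rrm2 sequences. Read on the other strand, the E2F form TTGGCGC can share letters with a CCAAT box. A match describes these letters only, and all 5 genes rose. Cdc20 was 17.3-fold higher (95% exact counting interval 4.45 to 148) and Ccnb1 13.5-fold (3.39 to 117), each on 2 untreated counts, Mcm5 changed by 2.03 ± 0.57 and Rrm2 by 2.2 ± 0.71, the latter call being lost without untreated replicate 2 (1.78, adjusted p = 0.104) or BLM day 7 replicate 2 (2.13, adjusted p = 0.0562).

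Inhibitors of the cycle split. Cdkn1a, the p21 inhibitor under p53 control, went from 642, 1031 and 1178 to 1459, 1729 and 1845 CPM and Cdkn1c, the imprinted p57 inhibitor, from 102, 91.9 and 105 to 38.9, 26.7 and 31.4 CPM. Neither pair of groups overlapped, and the first rose (0.82 ± 0.15, adjusted p = 5.61e-05) while the second fell (-1.62 ± 0.18, adjusted p = 1.78e-08). Of 20 inhibitors and p53 targets 10 rose and 1 fell, with a median of 0.80. Among the targets that rose were the TNF receptor family members Eda2r (1.70 ± 0.19) and Tnfrsf10b (1.80 ± 0.41), the stress sensor Sesn2 (1.02 ± 0.19) and Psrc1 (3.28 ± 0.25), which also works on the spindle. The p53 ligase Mdm2 (0.06 ± 0.23) and the stress cytokine Gdf15 (0.30 ± 0.41) did not pass.

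Collagen genes rose in the fibrillar class and moved both ways outside it. Of 7 fibrillar chains 6 rose and 0 fell, with a median of 1.42. Col1a1, a chain of type I collagen, stood at 666, 719 and 681 CPM untreated and 1349, 2259 and 2142 CPM at BLM day 7. Col5a2, of the type V collagen that nucleates fibrils, stood at 59.1, 72.1 and 65.5 and 203, 322 and 314 CPM. In both, replicate 1 was the lowest treated library and still lay above all untreated ones (1.48 ± 0.13 and 2.09 ± 0.16). The fibril nucleator Col11a1 (1.70 ± 1.52) did not pass, with 1.04, 0.251 and 0.468 and 0.871, 2.38 and 2.85 CPM. Of 16 other collagens 7 rose and 4 fell, with a median of 0.08. Col12a1, which decorates fibrils (2.43 ± 0.26), the anchoring fibril chain Col7a1 (1.74 ± 0.17) and Col28a1 (3.52 ± 0.39) rose. The transmembrane collagens Col13a1 (-0.57 ± 0.14) and Col23a1 (-0.90 ± 0.18) fell. Only 2 of these other collagens fell when untreated replicate 1 or BLM day 7 replicate 2 was left out.

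Basement membrane genes rose in 9 of 14 tested members and fell in 1. Col4a1 and Col4a2, the chains of the common type IV collagen, which are transcribed from a shared promoter, changed by 1.56 ± 0.15 and 1.26 ± 0.10. Col4a2 had 1775, 1841 and 1609.7 CPM untreated and 3717, 4229 and 4613 CPM treated. The treated libraries were all the higher. Laminin Lama1 had 0 untreated counts and was at least 15.4-fold higher. Lama4, a laminin chain of vessels and muscle, fell (-0.35 ± 0.11), a call lost without BLM day 7 replicate 2 or 3 or untreated replicate 1 (-0.23, adjusted p = 0.148 without the latter). Nidogens Nid1 (0.82 ± 0.11) and Nid2 (1.26 ± 0.31), which bridge laminin and collagen IV, rose.

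Enzymes that fold and join collagen rose in 13 of 22 and fell in 2, with a median of 0.60. The prolyl hydroxylase subunit P4ha3 (2.52 ± 0.23), its partner P4hb (0.79 ± 0.10), the chaperones Serpinh1 (0.82 ± 0.14) and Fkbp10 (1.01 ± 0.14) and the cross-linking enzymes Lox (0.79 ± 0.15) and Loxl2 (0.75 ± 0.14) rose. The procollagen protease enhancer Pcolce2 went the other way, from 482, 463 and 431 to 142, 86.9 and 99.5 CPM. Its treated libraries were all under the lowest untreated value (-2.07 ± 0.16, adjusted p = 1.72e-11). The related Pcolce also fell (-0.38 ± 0.11), but not without untreated replicate 1 or BLM day 7 replicate 3, where it changed by -0.29.

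Genes of matricellular glycoproteins, which tune adhesion rather than bear load, and of adhesive glycoproteins rose in 11 of 20 and fell in 4. Tenascin Tnc went from 23.8, 17.8 and 10.3 to 206, 339.6 and 300.4 CPM (3.96 ± 0.21). Periostin Postn stood at 2.85, 3.01 and 2.34 CPM untreated and 10.2, 20.9 and 22.5 CPM at BLM day 7 (2.66 ± 0.41). All treated libraries lay above the untreated ones for both. Cthrc1, a marker of activated lung fibroblasts, had 1 untreated count and was 73-fold higher (95% exact counting interval 12.7 to 2923), and Thbs4 had 2 and was 40.8-fold higher (11 to 343). The CCN family split: Wisp1 rose (2.74 ± 0.41), while Cyr61 (-0.82 ± 0.12) fell. Ctgf, a well-known target of mechanical and TGF-beta signals, had 841, 943 and 846 CPM untreated and 449, 868 and 705 CPM treated, and BLM day 7 replicate 2 overlapped the untreated range. It fell (-0.38 ± 0.14), but the call was lost without any 1 of 5 of the 6 libraries, with -0.15 (adjusted p = 0.35) without BLM day 7 replicate 1. The fibulin Fbln5, needed for elastic fibres, fell from 1003, 1179 and 1261 to 423, 376 and 345 CPM (-1.59 ± 0.16). The count that fell was 2 without untreated replicate 1 or BLM day 7 replicate 3.

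The promoter of Spp1 is shown because this gene changed most. The RUNX letters were searched after its values were seen. The window is chr5:104434861-104435160 (GRCm38.p6, plus strand), with the RUNX letters AACCACA in capitals.
Spp1: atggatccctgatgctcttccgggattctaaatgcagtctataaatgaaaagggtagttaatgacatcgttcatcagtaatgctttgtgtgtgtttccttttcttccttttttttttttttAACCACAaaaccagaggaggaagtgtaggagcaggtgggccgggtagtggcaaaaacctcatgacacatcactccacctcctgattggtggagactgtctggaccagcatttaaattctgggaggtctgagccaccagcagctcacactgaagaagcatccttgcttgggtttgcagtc
It held 1 match. Of all genes with a promoter entry 6.09% held AACCACA on either strand, and of the tested ones 4.25%. The share was 5.06% among genes that rose and 4.33% among genes that fell.

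Elastic fibre genes rose in 10 of 14 and fell in 3. Elastin Eln went from 471, 544 and 484 to 816, 1362 and 1598 CPM (1.33 ± 0.16), and fibrillin Fbn1 (1.17 ± 0.11) and the latent TGF-beta binding protein Ltbp2 (2.58 ± 0.23) rose. Ltbp4, which assembles elastin, fell from 1163, 1118 and 936 to 365, 252 and 270.0 CPM (-1.86 ± 0.19). Treated and untreated libraries did not overlap for either gene. Proteoglycans went both ways, 7 of 21 higher (33.3%) and 6 lower (28.6%), against 16.7% and 14.9% over all tested genes. The hyaluronan binder Vcan (1.5 ± 0.17), the hyaluronan synthase Has2 (1.84 ± 0.44), the hyaluronan receptor Cd44 (1.30 ± 0.12) and the syndecan Sdc1 (2.75 ± 0.46) rose. The small leucine-rich members Ogn (-1.24 ± 0.14), Prelp (-0.94 ± 0.10) and Aspn (-1.05 ± 0.24) fell, as did Dcn (-0.60 ± 0.16).

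Among proteases and their inhibitors 15 of 25 rose and 5 fell. The metalloprotease inhibitor Timp1 went from 12.7, 13.1 and 16.9 to 146, 168 and 177 CPM (3.56 ± 0.17). Its relative Timp3 fell (-0.68 ± 0.13). The serpin Serpine2 (2.02 ± 0.13), which blocks plasminogen activation, and the activator Plat (1.02 ± 0.14) all rose, as did the membrane proteases Adam12 (3.82 ± 0.40) and Adam19 (2.07 ± 0.27). Mmp14, which activates the gelatinase Mmp2, went from 2429, 2491 and 2536 to 3726, 4125 and 3992 CPM, higher in every treated library (0.67 ± 0.09). Only 3 fell when untreated replicate 2 or 3 or BLM day 7 replicate 2 or 3 was left out.

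Contractile and cytoskeletal genes rose in 16 of 26 and fell in 1. Smooth muscle actin Acta2, the usual mark of a myofibroblast, stood at 9.58, 7.28 and 7.96 CPM and 35.1, 74.5 and 56.4 CPM. The enteric actin Actg2 stood at 19.9, 18.6 and 13.6 and 58.6, 155 and 138 CPM. Replicate 1 was the lowest treated library for both, and above all untreated ones (2.73 ± 0.25 and 2.71 ± 0.28). Desmin Des (2.18 ± 0.27), tropomyosin Tpm2 (1.92 ± 0.15) and nonmuscle myosin Myh9 (1.89 ± 0.15) also rose. Smooth muscle myosin Myh11 (0.15 ± 0.46), its light chain Myl9 (-0.19 ± 0.29) and Lmod1 (0.64 ± 0.58) did not pass. The focal adhesion protein zyxin, Zyx, fell from 5663, 4821 and 4201 to 2453, 2059 and 2334 CPM (-1.10 ± 0.11). Integrins moved both ways: the collagen receptor Itga1 (1.93 ± 0.23), the fibronectin receptor Itga5 (2.31 ± 0.40) and Itgb8 (1.29 ± 0.28) rose, and Itga3 (-1.29 ± 0.30) and Itga8 (-1.12 ± 0.11) fell.

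In the TGF-beta and activin list 9 of 22 rose and 4 fell. The ligand Tgfb1 went from 6.48, 5.78 and 9.83 to 27.9, 31.2 and 39.3 CPM (2.22 ± 0.25). Tgfb2 (0.09 ± 0.23) and Tgfb3 (0.02 ± 0.15) did not pass. The activin subunit Inhba was 27.4-fold higher (95% exact counting interval 7.24 to 232) on 2 untreated counts, and the activin trap follistatin, Fst, rose from 2.59, 2.76 and 3.28 to 26.7, 52 and 52 CPM (3.94 ± 0.30). The activin receptor Acvr2b fell from 10.6, 10.8 and 12.2 to 2.32, 1.06 and 2.85 CPM (-2.43 ± 0.39). Groups stood apart for all 3 of Tgfb1, Fst and Acvr2b. The surface holder of latent TGF-beta, Lrrc32 (0.86 ± 0.15), and the corepressor Tgif1 (2.35 ± 0.33) rose, and the betaglycan Tgfbr3 fell (-0.84 ± 0.13).

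Bone morphogenetic protein (BMP) genes went both ways, 5 of 19 higher and 5 lower. That is 26.3% each way, against 16.7% and 14.9% over all tested genes. The ligands Bmp3 (-1.34 ± 0.19) and Bmp4 (-0.99 ± 0.19) and the decoy receptor Bambi (-0.65 ± 0.14) fell. The antagonist Grem1 had 0 untreated counts and 0.871, 3.96 and 3.8 CPM, at least 9.61-fold higher, while the antagonists Chrdl1 (-1.58 ± 0.23) and Twsg1 (-0.85 ± 0.12) fell. The target genes Id1 (-0.10 ± 0.30), Id2 (0.33 ± 0.38) and Id3 (-0.20 ± 0.15) did not pass. The count that rose was 3 without BLM day 7 replicate 2, and 3 when only the 6 libraries entered the model.

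Of 24 Wnt genes 5 rose and 5 fell, 20.8% each way, near the shares over all tested genes (16.7% and 14.9%). The secreted antagonist Sfrp1 went from 98.7, 107 and 81.5 to 792, 1346 and 1295 CPM. No treated library came near the untreated range (3.57 ± 0.18, adjusted p = 7.29e-15). The feedback target Axin2 fell from 78.5, 70.6 and 67 to 41.8, 35.7 and 48.2 CPM (-0.79 ± 0.14), and so did the secreted Dkk3 (-0.54 ± 0.13). Wnt5a (0.56 ± 0.17) and the R-spondin Rspo3 (1.24 ± 0.32), an amplifier of Wnt signals, rose. The count that fell was 3 without untreated replicate 2 or BLM day 7 replicate 2.

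Growth factor genes exchanged members. Of 24 tested, 8 rose and 8 fell, 33.3% each way, against 16.7% and 14.9% over all tested genes. The EGF family ligand epiregulin, Ereg, went from 0, 0.502 and 1.4 to 18.6, 31.2 and 29.2 CPM (5.61 ± 0.45). Its relative Hbegf went from 2.59, 5.53 and 5.15 to 15.1, 32.2 and 38 CPM (2.70 ± 0.34), and Nrg1 rose too (1.61 ± 0.40) while Nrg2 fell (-1.40 ± 0.28). Neurotrophic factors also split: Bdnf (2.99 ± 0.35) and Gdnf (2.37 ± 0.41) rose, and Ntf3 (-1.51 ± 0.37) fell. Angiopoietin Angpt2, an antagonist of the Tie2 receptor, fell from 11.7, 9.8 and 12.6 to 2.03, 1.85 and 2.54 CPM (-2.38 ± 0.41). The angiogenic factor Figf (-0.51 ± 0.12), Angpt1 (-0.58 ± 0.15) and the epithelial mitogen Fgf7 (-0.79 ± 0.12) fell, and Fgf2 (1.01 ± 0.10) rose. Fgf10 (-0.31 ± 0.18) and Hgf (-0.09 ± 0.12) did not pass.

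The insulin-like growth factor axis also went both ways, with 7 of 16 members higher and 6 lower. Igf1 went from 264, 211 and 211 to 491, 691 and 494 CPM (1.29 ± 0.17) and its binding protein Igfbp4 from 329, 365 and 445 to 830.2, 799 and 796 CPM (1.09 ± 0.11). Igfbp6, which prefers IGF2, fell from 6161, 7213 and 6135 to 3047, 2227 and 2159 CPM (-1.39 ± 0.16) beside the Igfbp3 described above. None of these groups overlapped. Imprinted genes did not move as a block: H19 rose, while the noncoding RNA Meg3 fell (-1.91 ± 0.23). Left without untreated replicate 3, the list had 3 members that fell.

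Genes of the resting alveolar fibroblast fell. Of 21 tested members 18 fell and 1 rose, with a median of -0.75. Inmt, an indolethylamine methyltransferase, had 1359, 1246 and 1250.1 CPM untreated and 406, 148 and 231 CPM treated. The lipolysis inhibitor G0s2 had 4684, 4431 and 3540.0 and 1443, 812 and 943 CPM, and the integrin ligand nephronectin, Npnt, had 3157, 2724 and 2607 and 1289, 836 and 939 CPM. Replicate 1 was the highest treated library in all 3 genes, and below every untreated library (-2.30 ± 0.24, -1.98 ± 0.20 and -1.47 ± 0.14). The sodium channel Scn3a (-1.87 ± 0.19) and Tcf21 (-1.30 ± 0.14), a transcription factor of lipid-storing fibroblasts, fell as well. Lipoprotein lipase Lpl was the member that rose, from 66.1, 86.2 and 94.6 to 372, 569 and 594 CPM (2.65 ± 0.20). Without BLM day 7 replicate 1 the count that fell was 18.

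Of 24 adventitial markers 4 were higher (16.7%) and 8 lower (33.3%), against 16.7% and 14.9% over all tested genes. Clec3b (-1.29 ± 0.18), Pi16 (-0.81 ± 0.17) and Scara5 (-0.99 ± 0.25) fell, and the alarmin Il33 (1.56 ± 0.28) rose. The markers Cd34 (-0.12 ± 0.13), Dpp4 (0.27 ± 0.44), Ly6a (0.16 ± 0.22) and Dpt (-0.03 ± 0.12) did not pass. In the retinoid list 2 of 13 rose (15.4%, near the share over all tested genes) and 5 fell (38.5%), with a median of -0.17. Without untreated replicate 1 the count that rose was 0. Lrat, which makes the retinyl esters of storage droplets, had 202, 407 and 195 CPM untreated and 67, 99.6 and 54.8 CPM treated, and Aldh1a1, which makes retinoic acid, had 85.2, 73.9 and 98.3 and 29.9, 26.9 and 30.7 CPM. Untreated replicate 2 was the highest of its group for Lrat, and neither pair of groups overlapped (-1.86 ± 0.29 and -1.55 ± 0.15).

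**Figure D3:**
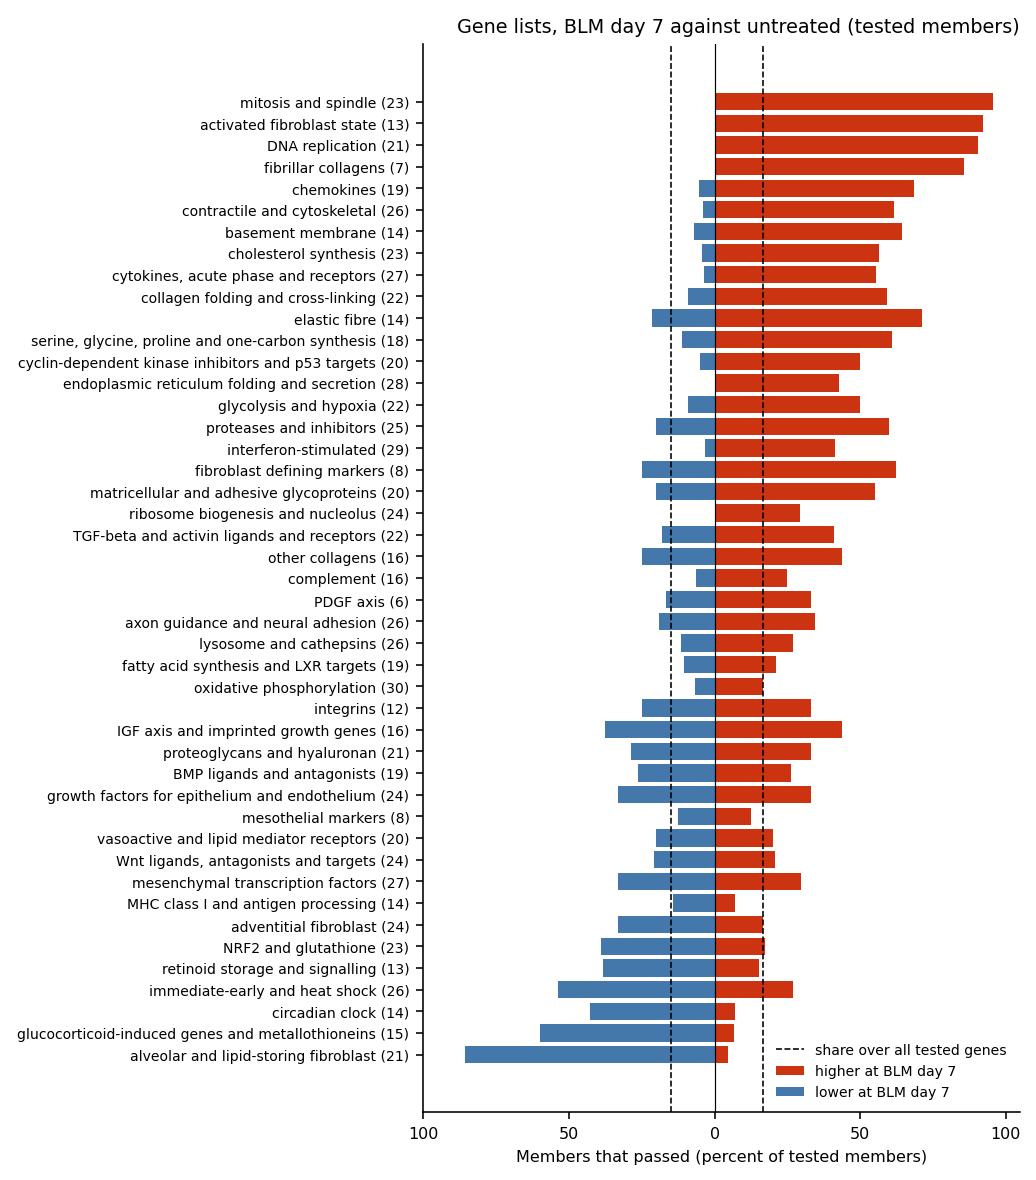
Share of tested members that passed in each list with at least 6 tested members (number in parentheses), with members higher at BLM day 7 to the right in red and members lower to the left in blue. Dashed lines mark the shares over all tested genes, 16.7% higher and 14.9% lower; mitosis and spindle (22 of 23 higher) and alveolar fibroblast genes (18 of 21 lower) lie at the ends.

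Transcription factors of mesenchyme moved both ways, 8 of 27 higher and 9 lower. Runx2, the regulator of bone and cartilage genes, had 4.14, 6.03 and 5.15 CPM untreated and 36, 49.4 and 62.1 CPM at BLM day 7. Runx1 had 14, 13.3 and 18.7 and 61.5, 72.9 and 82.7 CPM. Treated libraries lay above untreated ones for both (3.25 ± 0.24, adjusted p = 1.33e-11, and 2.27 ± 0.18, adjusted p = 7.92e-11). Snai1 (0.87 ± 0.20) rose while the related Snai2 (-0.76 ± 0.14) fell. Lung mesenchyme factors Tbx2 (-0.91 ± 0.11) and Hoxa5 (-0.72 ± 0.15) fell, while Foxf1 (0.26 ± 0.26) and Tbx5 (-0.10 ± 0.18) did not pass. In the short list of the activated fibroblast state 12 of 13 rose. Among them were the small neuronal-type protein gene Nrep (2.26 ± 0.24) and the haemoglobin-binding protein Hp (3.21 ± 0.21). Another was Ddah1 (2.24 ± 0.28), which breaks down an inhibitor of nitric oxide synthesis.

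Chemokine genes rose in 13 of 19 and fell in 1. Cxcl12, which retains leukocytes and progenitors, went from 18.1, 25.9 and 24.8 to 70.5, 66.3 and 75.1 CPM (1.63 ± 0.17). The B-cell attractant Cxcl13 went from 1.55, 5.53 and 3.75 to 29.9, 21.9 and 20.0 CPM (2.72 ± 0.32). Cxcl12 was even across the treated libraries, while the monocyte attractant Ccl2, at 48.2, 30.4 and 23.8 CPM after 14.8, 13.8 and 14 CPM, was highest in replicate 1 (1.26 ± 0.21). Ccl5 rose (3.35 ± 0.34), as did the neutrophil attractants Cxcl2 (1.58 ± 0.27) and Cxcl3 (1.37 ± 0.26), whose sequences are close. Ccl19, which guides dendritic cells and T cells, fell from 57.8, 54 and 40.3 to 17.4, 15.8 and 13.3 CPM (-1.72 ± 0.23). Cxcl5 (-0.05 ± 0.35) and the eosinophil attractant Ccl11 (-0.04 ± 0.34) did not pass. Without BLM day 7 replicate 1 the count that rose was 10.

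Of 27 cytokine and acute-phase genes and receptors 15 rose and 1 fell. Leukaemia inhibitory factor, Lif (chr11:4257557-4272514), an interleukin 6 family cytokine, stood at 326, 424 and 294 CPM untreated and 1121, 1526 and 1277 CPM at BLM day 7. The groups did not overlap (1.91 ± 0.14, adjusted p = 9.09e-12), and Il6 rose as well (0.69 ± 0.20), though not without untreated replicate 1 (0.48, adjusted p = 0.0858). The decoy receptor osteoprotegerin, Tnfrsf11b, went from 0, 0.754 and 0.936 to 9.87, 14.8 and 14.6 CPM (4.61 ± 0.53), and the interleukin 13 receptor chain Il13ra1 from 42, 40.4 and 43.1 to 155, 153 and 149 CPM (1.87 ± 0.11). The macrophage growth factors Csf2 (3.31 ± 0.57) and Il34 (3.01 ± 0.59) rose. The acute-phase gene Saa3, which has close copies, had 21.5, 46.7 and 48.2 CPM and then 365, 120.4 and 84 CPM, with replicate 1 far above the other libraries (2.32 ± 0.37, and 1.43 without it). Socs3, the feedback inhibitor of this cytokine family, fell from 130.0, 166 and 151 to 104, 91.1 and 109.7 CPM (-0.55 ± 0.13). Of 16 complement genes 4 rose (25%), among them factor B, Cfb (1.00 ± 0.17), and C6 (1.49 ± 0.16), and 1 fell (6.25%), a count that was 0 without BLM day 7 replicate 2. Over all tested genes the shares were 16.7% and 14.9%.

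Interferon-stimulated genes rose in part, and their count depended on BLM day 7 replicate 1. Of 29 tested 12 rose and 1 fell, and without that library the counts were 8 and 6. Isg15, a ubiquitin-like antiviral protein, had 75.9, 54.8 and 50.1 CPM untreated and 361, 184 and 118 CPM treated. Ifit1, which binds foreign RNA caps, had 95.8, 78.1 and 72.6 and 409, 134 and 122 CPM, and the sensor Zbp1 had 15.5, 12.3 and 10.3 and 68.5, 31.7 and 34.5 CPM. Replicate 1 was the highest library for all 3 genes, and replicates 2 and 3 also lay above every untreated library (1.86 ± 0.27, 1.42 ± 0.29 and 1.78 ± 0.25). Ifit genes have close copies. The regulator Irf7 (1.55 ± 0.34) and the deconjugating enzyme Usp18 (1.60 ± 0.37) were also among the 8 that rose without replicate 1. Without it the values were 0.64 for Ifit1 and 0.94 for Irf7. The antiviral Rsad2 (1.58 ± 0.47, and 0.87 without replicate 1) was not. The transcription factor Irf1 fell (-0.63 ± 0.17) with replicate 1 kept. Without it Irgm2 (-0.93) and Gbp2 (-0.61), which are GTPases, and the factor Stat2 (-0.41) counted as lower with Irf1 and 2 others. Of 14 genes of class I molecules and antigen processing 1 rose (7.14%), the light chain B2m (0.58 ± 0.12), and 2 fell. The list's median was -0.08, and as each library was left out 1 to 2 rose and 0 to 3 fell.

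**Figure D4:**
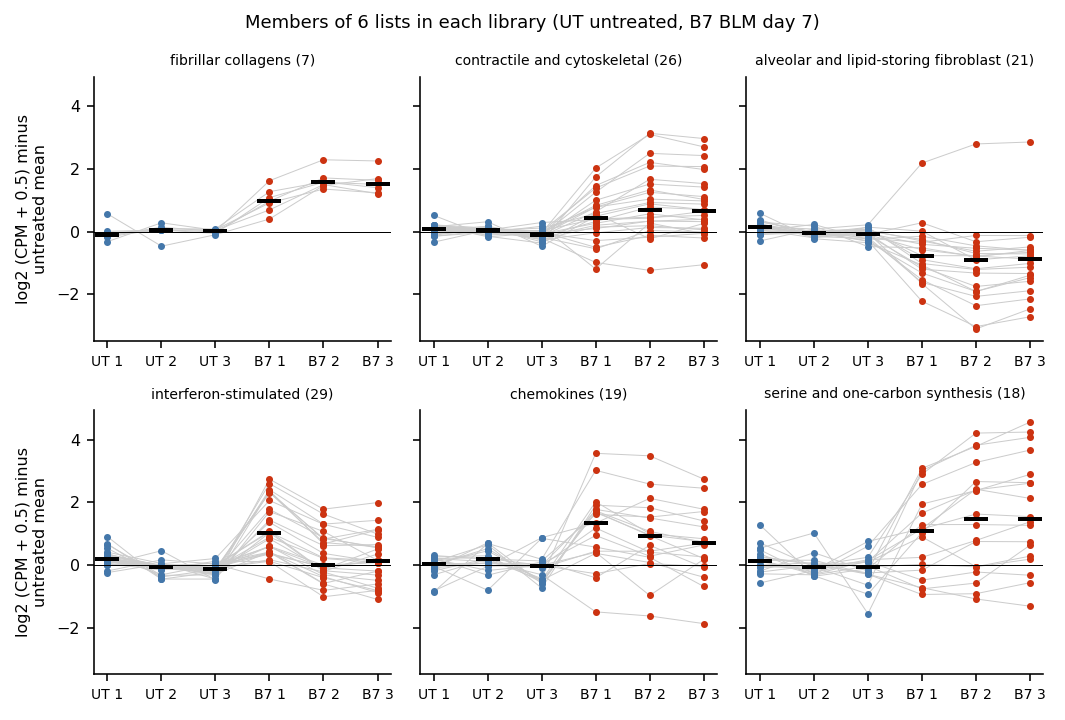
Each point is a tested member of 1 of 6 lists, as log2 of CPM + 0.5 minus its untreated mean (vertical axis), in the 3 untreated (UT, blue) and 3 BLM day 7 (B7, red) libraries, grey lines join a member's values, and black bars are medians. BLM day 7 replicate 1 lies above replicates 2 and 3 in the interferon-stimulated panel and below them in the fibrillar collagen and contractile panels.

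Amino acid and one-carbon enzymes rose in 11 of 18 tested members and fell in 2, with a median of 1.44. Asparagine synthetase, Asns (chr6:7675169-7693254), had 4.92, 5.78 and 7.02 CPM untreated and 46.7, 117 and 119.8 CPM at BLM day 7. Psat1, of serine synthesis, had 1.3, 1.26 and 2.81 and 12.5, 20.6 and 27.3 CPM. Both were lowest in replicate 1 among the treated libraries and far above the untreated range (4.03 ± 0.40, adjusted p = 3.27e-09, and 3.60 ± 0.49, adjusted p = 8.02e-07). The mitochondrial folate enzyme Mthfd2 was 80.7-fold higher (95% exact counting interval 14.1 to 3226) on 1 untreated count. Phgdh (2.34 ± 0.61, and 4.41 without untreated replicate 1), which opens the serine pathway, Aldh18a1 (1.51 ± 0.20) of proline synthesis and the cystine carrier Slc7a11 (4.48 ± 0.80) rose. The carriers Slc1a4 (-1.06 ± 0.17) and Slc1a5 (-0.83 ± 0.15) fell. Atf4, the transcription factor known to drive many of these genes, did not pass at the RNA level (-0.21 ± 0.12).

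Cholesterol synthesis genes rose in 13 of 23 and fell in 1, and in 9 and 1 without BLM day 7 replicate 1. Cyp51, the lanosterol demethylase, had 71.7, 55.8 and 55.7 CPM untreated and 172, 177 and 130.2 CPM treated. Treated libraries lay above untreated ones (1.38 ± 0.16). Squalene epoxidase Sqle rose (1.54 ± 0.21). Insig1, which restrains the pathway, fell (-0.47 ± 0.17), a call lost without untreated replicate 1 or 2 or BLM day 7 replicate 2 or 3, with -0.27 (adjusted p = 0.303) without untreated replicate 1. In glycolysis 11 of 22 rose and 2 fell, with the glucose carrier Slc2a1 (1.19 ± 0.10), hexokinase Hk2 (1.01 ± 0.21) and the lactate exporter Slc16a3 (0.99 ± 0.23) higher. The count that fell was 1 without untreated replicate 2 or BLM day 7 replicate 1.

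Folding and export genes of the endoplasmic reticulum rose in 12 of 28 and fell in 0, with a median of 0.37. Creb3l2, a transcription factor of secretory capacity, went from 12.2, 10.8 and 15.9 to 18.3, 20.9 and 22.2 CPM (0.69 ± 0.19), without overlap. The chaperone Hspa5 (0.81 ± 0.12) and the disulfide isomerase Pdia6 (0.41 ± 0.09) also rose. Of 24 ribosome biogenesis genes 7 rose and 0 fell, and 3 rose when untreated replicate 1 was left out and 4 when untreated replicate 3 or BLM day 7 replicate 2 was. Of 26 lysosomal genes 7 rose (26.9%) and 3 fell (11.5%), against 16.7% and 14.9% over all tested genes. Cathepsin Ctsk (1.19 ± 0.31), a collagen-degrading protease, was higher. In the list of fatty acid synthesis and LXR targets 4 of 19 rose (21.1%) and 2 fell (10.5%), near the shares over all tested genes. Apolipoprotein Apoe of that list fell (-1.18 ± 0.16). The number that rose in that list was 7 without untreated replicate 3.

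Among glutathione genes and genes induced by glucocorticoids, falls outnumbered rises. Of 23 NRF2 and glutathione genes 4 rose (17.4%, near the share of 16.7% over all tested genes) and 9 fell (39.1%). The cystine carrier Slc7a11, given above, had the list's largest rise (4.48), and Gclm (0.61 ± 0.16), of glutathione synthesis, rose too. The transferases Gsta3 (-1.64 ± 0.24), Gstm1 (-2.25 ± 0.25) and Gstm2 (-0.82 ± 0.14) fell, and the Gstm members are close copies of each other. The secreted peroxidase Gpx3 went from 1108, 959 and 870.4 to 553, 413 and 428 CPM (-1.08 ± 0.13). Of 15 glucocorticoid-induced genes 9 fell and 1 rose, with a median of -0.73. Tsc22d3, the glucocorticoid-induced leucine zipper, had 575, 948 and 1901 CPM untreated and 379, 310.1 and 396 CPM treated. Zbtb16 had 98.7, 79.9 and 165 and 32.2, 19 and 60.2 CPM, and Fkbp5, a cochaperone of the receptor, had 8.81, 10.3 and 7.49 and 44.4, 42.3 and 32.6 CPM. The first 2 were lower in every treated library and Fkbp5 higher (-1.65 ± 0.23, -1.62 ± 0.39 and 2.13 ± 0.28). Without untreated replicate 3 the value for Tsc22d3 was -1.08. The count that rose was 3 without untreated replicate 2. Hsd11b1 (-0.83 ± 0.16), which regenerates the active hormone, fell. Clock output genes Tef (-0.68 ± 0.14), Hlf (-0.72 ± 0.18) and Per1 (-1.27 ± 0.17) were among 6 of 14 circadian genes that fell, with 1 higher, Bhlhe40 (1.51 ± 0.14). The labels give no hour of dissection.

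Immediate-early and heat shock genes fell in 14 of 26 and rose in 7. Fos went from 9194, 9308 and 10205 to 6700.1, 5909.6 and 7997 CPM (-0.48 ± 0.12) and Zfp36, which destabilises cytokine messages, from 11045, 13008 and 11343 to 9075, 6944 and 8247 CPM (-0.54 ± 0.13). The zinc finger factor Egr2 went the other way, from 28.2, 52.8 and 38.9 to 69.9, 58.6 and 74.5 CPM (0.75 ± 0.15). Groups did not overlap for these 3 genes. Egr1 (-0.73 ± 0.11), Fosb (-1.03 ± 0.18), Atf3 (-0.89 ± 0.18) and the small heat shock gene Hspb1 (-0.67 ± 0.13) fell, and the constitutive chaperone Hspa8 (0.87 ± 0.12) rose. Such genes are known to respond within minutes to handling, and the lungs of all groups were digested with enzymes at 37°C before sorting; the part of handling was not tested. Leaving out BLM day 7 replicate 2 left 9 that fell, and 3 and 4 rose when untreated replicate 1 and BLM day 7 replicate 1 were left out in turn.

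Of 20 receptors for vasoactive and lipid signals 4 rose and 4 fell, 20% each way, near the shares over all tested genes (16.7% and 14.9%). Npr3 (chr15:11839896-11907287), the clearance receptor of natriuretic peptides, had 28, 34.7 and 33.7 CPM untreated and 285, 419 and 374 CPM at BLM day 7. The alpha-1 adrenergic receptor Adra1a had 75.4, 62.5 and 71.6 and 18.6, 12.1 and 12.4 CPM, and the prostaglandin F receptor Ptgfr had 29.8, 32.4 and 39.8 and 12.5, 10.0 and 10.8 CPM. The groups lay apart for all 3, with Npr3 higher and the others lower (3.49 ± 0.27, adjusted p = 2.19e-11; -2.28 ± 0.23, adjusted p = 6.94e-09; -1.60 ± 0.21, adjusted p = 5.76e-07). The inducible prostaglandin synthase Ptgs2 (1.63 ± 0.17) rose, and the prostacyclin synthase Ptgis (-0.54 ± 0.10) fell. In the platelet-derived growth factor axis Pdgfc (2.71 ± 0.66) and the receptor Pdgfrb (1.11 ± 0.21) rose, and Pdgfra fell (-0.60 ± 0.11).

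Genes of axon guidance and neural adhesion rose in 9 of 26 (34.6%) and fell in 5 (19.2%), against 16.7% and 14.9% over all tested genes. Neural cell adhesion molecule Ncam1 went from 4.92, 6.28 and 6.09 to 12.5, 18.5 and 21.9 CPM (1.61 ± 0.30) and the repellent Slit2 from 49.5, 42.5 and 42.1 to 72.3, 69.5 and 80.8 CPM (0.72 ± 0.12). Both were higher in every treated library. The semaphorin Sema7a was 42.3-fold higher (95% exact counting interval 7.2 to 1708) on 1 untreated count. The guidance cue netrin, Ntn1, fell (-0.86 ± 0.22). When untreated replicate 1 or BLM day 7 replicate 2 was left out 3 fell, and 2 when untreated replicate 2 was.

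The BLM day 7 libraries were also set directly against BLM day 14 and against SiO2 day 7, and untreated against BLM day 63. Of the 11669 genes 1169 (10%) differed between BLM day 14 and day 7, 607 (5.2%) higher and 562 (4.82%) lower at day 14. Without BLM day 7 replicate 1 the numbers were 661, 361 and 300. Values in parentheses are log2 differences with SE, day 14 minus day 7. Collagen Col11a1 was 2.03 ± 1.03 CPM (SD, n = 3) at day 7 and 98.4 ± 57.7 CPM at day 14 (5.59 ± 0.62, adjusted p = 3.36e-07). Col8a1, a short-chain collagen, was 0.757 ± 0.681 and 20.1 ± 3.79 CPM (4.65 ± 0.50), and Postn 17.8 ± 6.71 and 87.8 ± 18.2 CPM (2.29 ± 0.25). All 3 were higher at day 14, and Col11a1 and Col8a1 had not passed between day 7 and untreated. In the other direction Tk1 was 149.7 ± 38 CPM at day 7 and 71.9 ± 30.1 CPM at day 14 (-1.07 ± 0.22), and Isg15 221 ± 126 and 54.1 ± 15.2 CPM (-2.02 ± 0.27). The interferon-induced Ifi44 (-2.81 ± 0.42) and Irf7 (-2.46 ± 0.37) were lower at day 14, as was Sftpc (-3.04 ± 0.38), the epithelial marker named above. Without BLM day 7 replicate 1 the differences were -1.475 for Isg15, -2.246 for Ifi44 and -1.851 for Irf7.

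SiO2 is the second injury of the series, given as particles by the same route, and its day 7 libraries share the day with BLM. Between SiO2 day 7 and BLM day 7, 1212 genes (10.4%) differed, 617 (5.29%) higher and 595 (5.1%) lower with SiO2, and values in parentheses are SiO2 minus BLM. The TNF receptor Tnfrsf9 was 0.581 ± 0.509 CPM with BLM and 37.9 ± 11.9 CPM with SiO2 (5.95 ± 0.51, adjusted p = 9.31e-10). The protease Adamdec1 was 2.23 ± 0.351 and 104 ± 32.8 CPM (5.53 ± 0.36), and Grem1 2.88 ± 1.74 and 62.6 ± 11.6 CPM (4.42 ± 0.33). All 3 were higher with SiO2, as was Col1a1 (1.19 ± 0.13). Higher with BLM were Col28a1, at 24.5 ± 6.87 against 5.03 ± 0.448 CPM (-2.27 ± 0.32), the lipoxygenase Alox12 (-2.23 ± 0.30), Npr3 (-1.38 ± 0.23) and Chodl (-1.65 ± 0.25). Igfbp3 was lower with BLM, at 15.4 ± 6.96 CPM against 126 ± 33.3 CPM (3.02 ± 0.23). For Spp1 (0.44 ± 0.29, adjusted p = 0.394), Top2a (0.40 ± 0.25, adjusted p = 0.382) and Asns (0.09 ± 0.28, adjusted p = 0.899) no difference between the agents passed the test, though Spp1 did (0.42, adjusted p = 0.00301) with no filter on low counts. That fit also took Npr3 from adjusted p = 8.28e-05 to 5.83e-29 at a near-equal difference (-1.40). Its adjusted p are therefore not comparable with those of the main fit.

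At BLM day 63, 1343 genes (11.5%) differed from untreated, 703 (6.02%) higher and 640 (5.48%) lower, and without untreated replicate 1 the numbers were 795, 393 and 402. This comparison shares the untreated libraries with day 7, so values are given side by side. Npr3 was 32.1 ± 3.62 CPM untreated, 359 ± 68.1 CPM at day 7 and 276 ± 116 CPM at day 63 (3.11 ± 0.26 at day 63 against untreated, adjusted p = 2.46e-09). Lpl was 82.3 ± 14.7, 512 ± 121 and 336 ± 112 CPM (2.04 ± 0.20), and Sfrp1 95.7 ± 13, 1144 ± 306 and 313 ± 26.7 CPM (1.70 ± 0.17). These 3 were still above untreated at day 63. Inmt, at 1323 ± 46.2 CPM (0.04 ± 0.23), Top2a, at 2.76 ± 1.1 CPM (-1.07 ± 0.60), and Col1a1, at 565 ± 53 CPM (-0.28 ± 0.13), did not pass the test against untreated, though Top2a did (-1.05, adjusted p = 0.015) with no filter on low counts. The adjusted p of the unfiltered fit are not comparable with the main ones, as given above. Col28a1 was 2.13 ± 1.26 CPM untreated and 49 ± 15.9 CPM at day 63, after 24.5 ± 6.87 CPM at day 7 (4.51 ± 0.36 at day 63 against untreated).

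**Figure D5:**
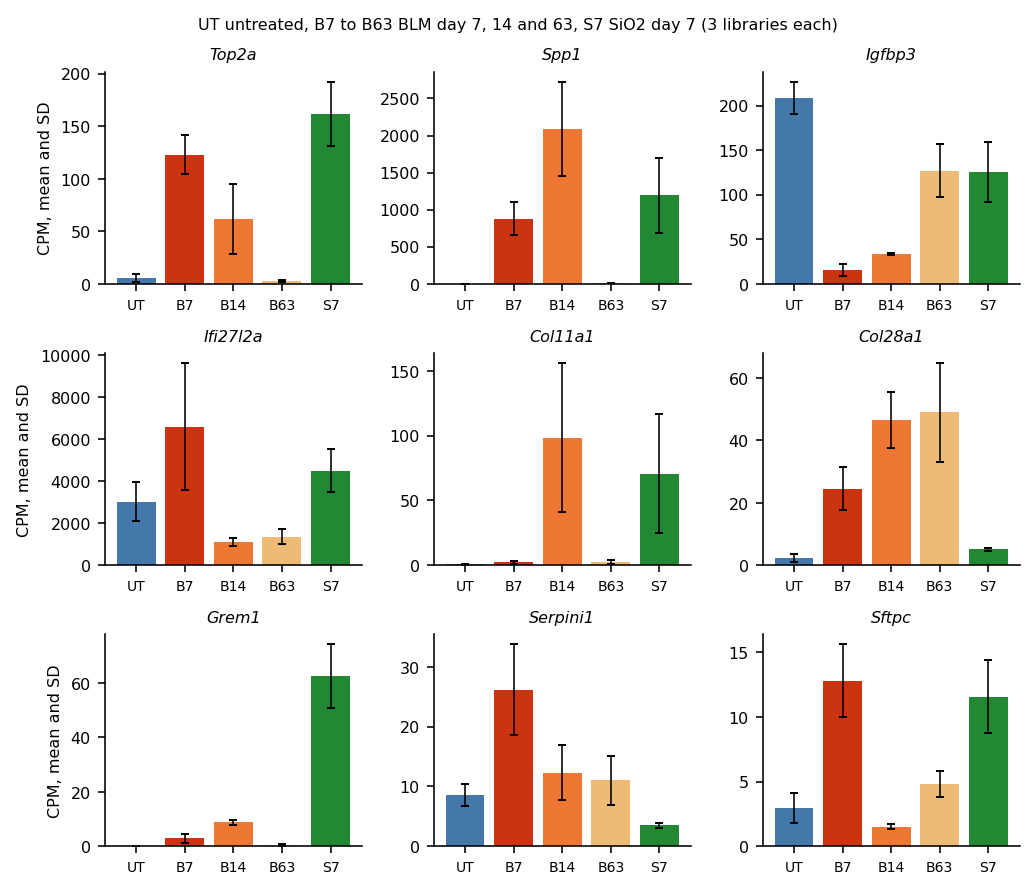
Mean CPM with SD (bars from 0, 3 libraries per group, own scale in each panel) of 9 genes in untreated (UT), BLM day 7, 14 and 63 (B7, B14, B63) and SiO2 day 7 (S7) libraries. Top2a is high at both day 7 groups, Igfbp3 is lowest at B7, Col28a1 stays high at B63, and Grem1 is highest at S7.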

How the data were processed

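RNA of sorted fibroblasts was measured by 3′SAGE-seq in 3 BLM day 7 and 3 untreated libraries. The authors deposited whole-number tag counts per gene symbol for each sample, with no normalization, per the file headers. Bowtie2 2.2.5 and the mm10 build are named in the submitters' processing notes, and the counting program, annotation and strand setting are not given in the sources used here. Totals of 2080636 to 3974734 counts per library set the precision. A model over all 21 libraries in 7 groups was fitted in edgeR 4.0.16 (R 4.3.3, TMM scaling, filterByExpr, quasi-likelihood test, Benjamini-Hochberg adjustment, threshold 0.05), which keeps 14 residual degrees of freedom, and CPM use TMM library sizes. With 3 libraries against 3, an exact permutation test cannot go below p = 0.1, so no gene was tested that way. Alternatives were DESeq2 size factors, upper quartile scaling, no filter, DESeq2 1.42.0, limma 3.58.1 (voom), a replicate block, the 6 libraries alone and each library left out. Simulated counts for 11354 genes, with 50 genes changed at each fold, gave back 52% of genes changed 2-fold and 92% of those changed 4-fold. Of the calls there 6.76% were false. Far fewer genes were changed than passed in the data, so these shares do not give the recovery of this comparison. No pairing by replicate number was seen: deviations of same-numbered libraries from their group means correlated at 0.024, 0.036 and -0.003 across genes. Such values show no strong shared effect, and they cannot exclude that same-numbered samples were handled together. Gene lists and named genes were chosen with earlier results of these data known. The naming rule took the 12 largest log2 fold changes per direction among genes with at least 10 CPM and no overlap, the 12 largest CPM gains and losses, the 6 smallest adjusted p per list and the 6 largest changes per direction in the direct comparisons. Other genes named were chosen after their values were seen. Some genes and list members are not reported by name here. Promoter sequences are RefSeq, and gene positions are GENCODE vM21 on mm10.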

Additional observations from a re-analysis of the deposited data

Results flagged for a closer look

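Ifi27l2a, an interferon-induced gene with close copies, had 3029 ± 923 CPM untreated, 6599 ± 3030.0 CPM at BLM day 7 and 1097 ± 198 CPM at BLM day 14 (mean ± SD, n = 3). It rose at day 7 (1.12 ± 0.22, and 0.68 without BLM day 7 replicate 1) and fell at day 14 (-1.47 ± 0.23) against the same untreated libraries, and the direct test of day 14 against day 7 gave -2.59 ± 0.23 (adjusted p = 8.57e-09). Serpini1, the gene of the protease inhibitor neuroserpin, had 8.64 ± 1.82 CPM untreated, 26.2 ± 7.57 CPM at BLM day 7 and 3.5 ± 0.45 CPM at SiO2 day 7. It rose with BLM and fell with SiO2, and the direct test of SiO2 against BLM at day 7 gave -2.90 ± 0.32 (adjusted p = 1.13e-07). Mesothelin, Msln, had 21.1 ± 5.49, 35.1 ± 12 and 11.8 ± 2.05 CPM in the same 3 groups, and the direct test gave -1.58 ± 0.25 (adjusted p = 3.25e-05). Its rise at BLM day 7 was lost without untreated replicate 1 or BLM day 7 replicate 1 or 2.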

How the results depend on the processing

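The 3685 genes that passed between BLM day 7 and untreated became 3684 with DESeq2 size factors, 3696 with upper quartile scaling, 3534 with no filter on low counts, 3346 in DESeq2, 3573 in limma-voom and 3287 with the 6 libraries alone. With the replicate numbers as a block, although no pairing by them was seen, 3624 genes passed, 1910 higher and 1714 lower. No gene passed in opposite directions under any of these settings. The share that was higher moved from 52.9% to 47% with upper quartile scaling and to 56.7% with no filter. Leaving out each library of that comparison gave 2892 to 3488 genes (1580 to 1864 higher, 1312 to 1624 lower). For BLM day 14 against day 7 the range was 661 to 1006 (361 to 504 higher, 300 to 508 lower), with the lowest values without BLM day 7 replicate 1. For BLM day 63 against untreated it was 795 to 1219 (393 to 614 higher, 372 to 605 lower). The lowest values were 795 without untreated replicate 1 and 814 (442 higher, 372 lower) without BLM day 63 replicate 3, and 406 were lower without replicate 2 of that group. For SiO2 against BLM at day 7 it was 842 to 1133. Fewer samples entered each of these fits, and no other cause was tested. Of 354 genes that passed and were taken by the naming rule or named otherwise, 0 reversed. Of these, 12 lost the call under an alternative other than leaving out 1 library, the fit of the 6 libraries alone included. Without at least 1 library 27 lost it. For the genes named in the direct comparisons and at day 63 the same settings were read gene by gene, a step chosen after seeing the data: no call was lost or reversed, and Spp1 and Top2a passed with no filter, as given above.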
